A study of Mus musculus with 8 samples.

Results

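The miRNAs described here are erythroid, that is abundant in red blood cells and their precursors: mmu-miR-451a, the arms mmu-miR-144-3p and mmu-miR-144-5p of 1 hairpin, and the 5p arm that mmu-miR-486a-5p and mmu-miR-486b-5p have in common. They were taken by name from a table of short RNAs bound to Argonaute in mouse brain. The 5 names filled 4 entries, because every read of miR-486a-5p was listed together with miR-486b-5p, written miR-486a/b-5p from here on. They made up 118 of the 47204 distinct reads and 4 of the 895 miRNA names. By name, 61 reads belonged to miR-451a, 21 to miR-144-3p, 8 to miR-144-5p and 28 to miR-486a/b-5p.

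The libraries came from cortex and hippocampus of 8 mice, all carrying the 5XFAD transgenes, which are driven by the neuronal Thy1 promoter and give amyloid plaques. Of these, 4 had 1 functional Rubicon allele (Rubicon+/-, called het) and 4 had none (Rubicon-/-, called ko). Rubicon is a protein needed for LC3-associated phagocytosis and endocytosis. The mice were females on a mixed C57BL/6J and SJL background, 6 or 8 months old by one account and age-matched at 6 months by another, and no age is given for single mice in the sources used here. No mouse without the transgenes entered this comparison, and the Rubicon genotype was that of the whole animal. Argonaute complexes were captured with a GW182 peptide that binds all 4 Argonautes, and the RNA in them was sequenced. No read was annotated to any of the 9 Rubcn transcripts searched, so the genotypes were not checked here. The search used GENCODE M21 transcript IDs, whereas the table's mRNA annotation is of the older mm9 build, and reads under a retired ID would have been missed.

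Depth ran from 509839 to 19878054 reads per library, and 2 ko libraries (replicates 1 and 2) held over 5000000 each. Levels are reads per 1000000 reads of the library (CPM), in which 3 reads were worth 0.151 to 5.79 CPM. Each library stands for 1 mouse.

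miR-144 and miR-451a are made from 1 primary transcript, which GATA1 switches on in red cell precursors, and they are among the most abundant miRNAs of mature red cells. miR-451a is matured without Dicer. Its hairpin has too short a stem for that enzyme, so Argonaute 2 slices the 3′ arm and exonucleases then trim the overhanging 3′ end towards the mature form. miR-144 and miR-486 are cut by Dicer in the usual way. miR-486 lies in Ank1, the gene of the ankyrin that anchors the red cell membrane skeleton, and it is also abundant in skeletal and heart muscle.

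The mature sequences are shown because the results turn on their seeds and ends. The first 3 are from RefSeq (GRCm38.p6) and the last is the most abundant miR-486a/b-5p read of the table, where T stands for U. Capitals mark the seed, bases 2 to 8.
miR-451a: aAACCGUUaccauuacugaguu
miR-144-3p: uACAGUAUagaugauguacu
miR-144-5p: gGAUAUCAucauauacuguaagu
miR-486a/b-5p: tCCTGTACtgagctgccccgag
No seed was shared among the 4.

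The hairpins of the cluster are shown with the mature arms in capitals, since reads were placed on them base by base.
Mir144: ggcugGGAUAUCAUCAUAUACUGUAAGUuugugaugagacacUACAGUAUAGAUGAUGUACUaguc
Mir451a: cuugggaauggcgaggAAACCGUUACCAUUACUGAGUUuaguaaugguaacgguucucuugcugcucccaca
In GRCm38, Mir144 lies at chr11:78073005-78073070 and Mir451a at chr11:78073170-78073241, both on the plus strand and 99 bases apart. Mir451b is annotated on the other strand of the Mir451a hairpin, and no read of it was in the table. Mir486 is annotated at chr8:23142555-23142682 on the plus strand, in an intron of Ank1 (GENCODE M21).

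miR-451a was the most abundant of the 4, miR-144-3p and miR-486a/b-5p came next, and miR-144-5p was the scarcest, at a mean of 6.405 CPM. Their sum took between 0.0912% and 0.339% of a library's reads.

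For miR-451a, the het libraries 1 to 4 held 1214, 1912, 1711 and 1680 CPM, and the ko libraries 1 to 4 held 531.1, 1600, 580.5 and 1239 CPM. The het mean of 1629 ± 295 CPM stood against a ko mean of 987.6 ± 520 CPM (SD, n = 4 each), and over all 8 libraries miR-451a ranked 87 among the miRNA names. Ko replicates 1 and 3 were the lowest of all libraries, whereas ko replicate 2 lay within the het range, so the groups overlapped.

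For miR-144-3p, the guide strand of its hairpin, the het libraries held 509.7, 1214, 236.1 and 410 CPM and the ko libraries 170.4, 620.6, 182.6 and 157.7 CPM. Het replicate 2 and ko replicate 2 were the highest in their groups. The other 3 ko libraries were below every het library. The group means were 592.4 ± 429 CPM (het) and 282.8 ± 225 CPM (ko). Its SD over the 8 libraries was 81.8% of the mean, against 39.8% for miR-451a and 26.7% for miR-486a/b-5p.

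Reads of miR-144-5p, the other arm, were few. The het libraries held 5, 11, 4 and 19 reads of it (1.553 to 9.653 CPM) and the ko libraries 33, 261, 5 and 6 (2.149 to 13.11 CPM). In 4 of the 8 libraries it had 6 reads or fewer, near the 3-read limit, and the groups overlapped. The log2 ratio of the 3p to the 5p arm, with 1 CPM added to each, averaged 5.73 and ran from 4.53 to 7.15 over the libraries. With so few reads of the 5p arm it is imprecise, and the added CPM lowers it.

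For miR-486a/b-5p, the het libraries held 177.6, 258.6, 141.3 and 219.3 CPM and the ko libraries 206.4, 147.1, 295.2 and 171.5 CPM. The means were 199.2 ± 50.8 and 205.0 ± 64.8 CPM, and the highest library was ko replicate 3, which was among the lowest for miR-451a. Its passenger arm miR-486a-3p averaged 21.6 ± 14.7 CPM (het) and 17.66 ± 3.83 CPM (ko), and miR-486b-3p stayed at or below 1.96 CPM.

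**Figure D1:**
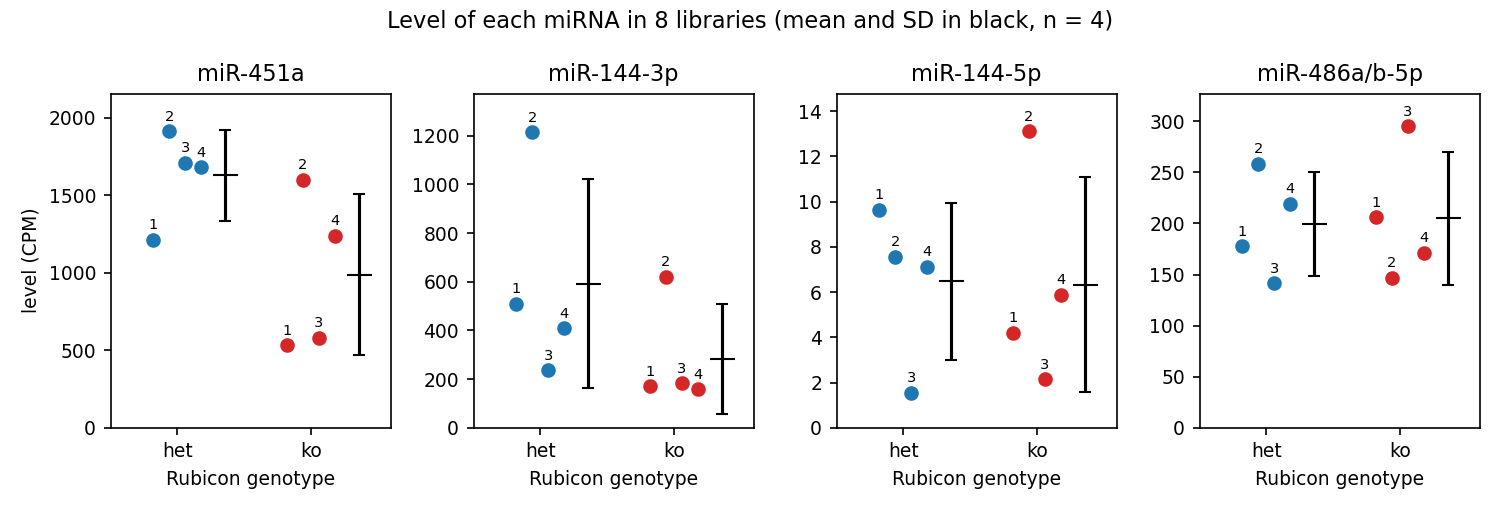
Level in CPM (vertical axes from 0, a scale for each miRNA) in the 4 het (blue) and 4 ko (red) libraries, with replicate numbers beside the points and the mean and SD of each group in black. Ko replicates 1 and 3 had the lowest miR-451a levels, 531.1 and 580.5 CPM, while the miR-486a/b-5p points of the groups overlapped, with ko replicate 3 the highest at 295.2 CPM.

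Within each library, the order of levels was tested by exact sign-flip permutation of the log2 differences between neighbours, two-sided, with adjustment over the 3 neighbours. Neighbours were taken from the order of mean level in the same 8 libraries, so these p-values are not those of pairs fixed beforehand. miR-451a exceeded miR-144-3p in 8 of 8 libraries, by 3.49-fold on average (with 1 CPM added to each level, log2 difference 1.80 ± 0.79, SD, exact p = 0.00781, the smallest the design allows, adjusted p = 0.0117). miR-144-3p and miR-486a/b-5p could not be placed in order, since miR-144-3p was higher in 5 of 8 libraries only (log2 difference 0.80 ± 1.10, exact p = 0.102, adjusted p = 0.102). miR-486a/b-5p exceeded miR-144-5p in 8 of 8 libraries (log2 difference 4.93 ± 0.98, exact p = 0.00781, adjusted p = 0.0117). The size of that difference depends on the CPM added, being 5.19 with 0.1 CPM and 3.69 with 10 CPM. Each read spans a whole short RNA, so CPM was not scaled by length. The miRNAs did differ in read length, with means of 22.9 nt for miR-451a and 19.5 nt for miR-144-3p, and the part of the gel cut in their order was not tested.

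The reads of miR-451a formed a ladder of 3′ ends on 1 fixed 5′ end. Reads that began at the first base of the mature form and matched the hairpin without mismatch made up 94.42% ± 1.97 of its reads (SD, n = 8). The 5 most abundant reads are shown in order of level, seed in capitals, and differ only in where they stop.
23 nt: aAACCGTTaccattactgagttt
22 nt: aAACCGTTaccattactgagtt
25 nt: aAACCGTTaccattactgagtttag
26 nt: aAACCGTTaccattactgagtttagt
21 nt: aAACCGTTaccattactgagt
All 5 are exact prefixes of the sliced hairpin. The 23-nt read took 43.07% ± 4.2 of miR-451a reads and the 22-nt read, which is the RefSeq mature form, took 24.76% ± 2.88. The 21-nt read took 5.904% ± 1.76. The 24-nt prefix was scarcer, at 4.783% ± 2.21, than the 25-nt read at 8.083% ± 3.02 and the 26-nt read at 7.124% ± 2.54. Counting all miR-451a reads of a length, 25 nt was more frequent than 24 nt in 8 of 8 libraries, and 26 nt was more frequent than 24 nt in 5 of 8. The 27-nt prefix took 0.1277% ± 0.157, and the longest prefix seen was 29 nt (0.01992% ± 0.0503).

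**Figure D2:**
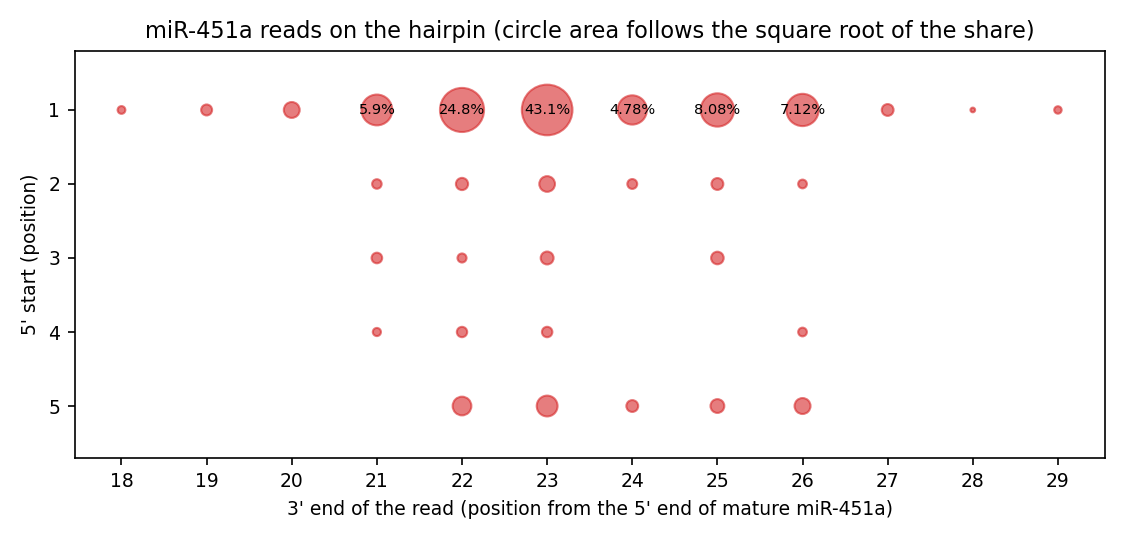
Each circle is a miR-451a read that matched the hairpin exactly, placed by its 3′ end (horizontal axis) and 5′ start (vertical axis), both as positions counted from 1 at the first base of the mature form; circle area follows the square root of its share of miR-451a reads (mean of 8 libraries), printed where it is at least 4%. Reads starting at position 1 ended mostly at positions 22 and 23, with a second, smaller group at 25 and 26.

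Long forms were a larger part of miR-451a than of the other miRNAs. Reads of 24 nt or more made up 20.8% ± 4.4 of miR-451a (14.6 to 27.7% over the libraries) and 4.42% ± 0.391 of the reads of all other miRNA names (3.9 to 5.01%). The share was higher for miR-451a in 8 of 8 libraries, by 16.4 percentage points on average. The 24-nt limit was chosen after the reads had been seen, so this is given without a test. In the shallowest library it was 18.1%, with a 95% Wilson interval of 15.3 to 21.3%. Other single miRNAs had still larger shares. By share of such reads miR-451a ranked 35 among the 463 miRNAs whose mean reached 10 CPM (median 1.27%), and names such as miR-702-3p (60.0%), miR-7a-5p (53.7%) and miR-30c-5p (45.8%), which were picked for their rank, had more. By mean read length it ranked 17 (22.9 nt, against a median of 21.8 nt).

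miR-144-3p lay at the other end of the scale, ranking 456 of 463 by mean read length with 19.5 nt. Its 2 main reads ended at base 20 and base 19 of the mature form.
20 nt: tACAGTATagatgatgtact
19 nt: tACAGTATagatgatgtac
Reads of 19 nt took 39.64% ± 6.84 and those of 20 nt took 36.65% ± 10.8, and none of its reads reached 24 nt. miR-486a/b-5p was close to the typical miRNA, with a mean length of 21.99 nt and 3.24% of reads at 24 nt or more.
22 nt: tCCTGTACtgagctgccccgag
21 nt: tCCTGTACtgagctgccccga
Its next most abundant reads carried 1 more base than the 22-nt read. That base was U in 18.8% of miR-486a/b-5p reads and A in 7.96%, and no read had G or C there. Whether either base is encoded was not tested, as no hairpin of miR-486 was used.

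**Figure D3:**
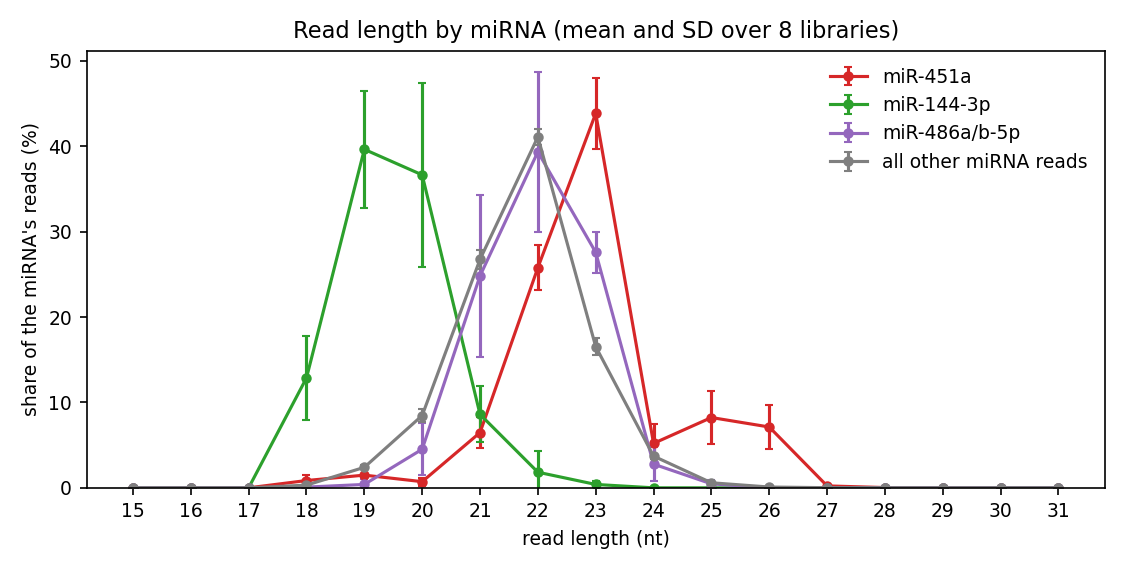
Share of reads (%) by read length in nt, as mean and SD over the 8 libraries, for miR-451a (red), miR-144-3p (green), miR-486a/b-5p (purple) and the reads of all other miRNA names (grey). miR-144-3p peaked at 19 and 20 nt, miR-486a/b-5p and the other miRNAs at 22 nt, and miR-451a at 23 nt with a shoulder at 25 and 26 nt.

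The deposited table gives each 6mer seed (bases 2 to 7) a viability, the mean percentage of cells of 3 mouse lines alive after a short RNA with that seed was introduced, measured in an earlier screen and not in these mice. Low values mark seeds that kill cells. The main seed AACCGU of miR-451a has a viability of 58.3% and was carried by 95.3% ± 2.16 of its reads. The next seed, GUUACC with a viability of 18.6%, arose where the read began at base 5 of the mature form, and it took 2.83% ± 1.77 of miR-451a reads (0.976 to 5.27%), or 29.6 CPM. miR-144-3p carried ACAGUA (86.2%) in 92.9% ± 2.38 of reads, and 6.88% ± 2.26 began 1 base earlier and carried UACAGU (61.1%). miR-486a/b-5p carried CCUGUA (67.1%) in 98.6% ± 0.959 of reads. The few miR-144-5p reads mostly carried GAUAUC (36.6%).

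The genotype comparison asked whether loss of Rubicon in 5XFAD mice went with another level of these miRNAs in Argonaute. It was fitted with limma on log2(CPM + 1) over the 463 miRNAs that averaged 10 CPM or more, and 3 of the 4 entries passed that filter. After adjustment 0 of these 3 were called by limma and 1 had an unadjusted p under the threshold of 0.05, while 6 of the 463 were called (1.3%), all of them lower in ko. The alternatives edgeR and DESeq2, run on recovered reads, also called 0 of the 3. A difference below 0 was seen for miR-451a and miR-144-3p and for 59.4% of all tested. The level of miR-451a differed by -0.86 (ko minus het, SE 0.36, 95% interval -1.64 to -0.08, limma adjusted p = 0.593, and 0.0336 before adjustment). All 4 ko libraries were below its het mean. That pattern held for 15.6% of the tested miRNAs, and a limma p under 0.05 before adjustment for 7.34% (6.91% lower in ko). miR-144-3p differed by -1.07 (SE 0.51, 95% interval -2.17 to 0.03, adjusted p = 0.613), with 3 of 4 ko libraries below the het mean. For miR-486a/b-5p the difference was 0.03 (SE 0.31, 95% interval -0.64 to 0.69, adjusted p = 0.995). miR-144-5p, which failed the filter, differed by -0.06 with the filter lowered to 1 CPM (adjusted p = 0.992). The intervals of miR-451a and miR-144-3p still include differences close to 0 as well as falls of over 1 on the log2 scale.

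The 2 lower values depended on single libraries and on the scaling. Without het replicate 2 the miR-144-3p difference was -0.64, and without ko replicate 2 it was -1.54 and that of miR-451a was -1.15. The median difference of all tested miRNAs was -0.09. When each library was centred on its own median, every difference moved up by 0.22, to -0.64 for miR-451a, -0.85 for miR-144-3p and 0.25 for miR-486a/b-5p. The unadjusted p of miR-451a was then 0.119 by limma. On recovered reads it was 0.139 by edgeR and 0.133 by DESeq2. Among all 463, the share of unadjusted calls that were higher in ko was 5.88% as deposited and 42.9% after centring. Fewer red cells in a sample and fewer of these molecules per cell cannot be told apart in whole tissue.

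The miRNAs of other cells were listed beside them. Of 8 other miRNAs abundant in red cells, 7 were tested and none passed, with a median difference of -0.09, equal to that of all miRNAs. The 8 summed to 26430 to 34460 CPM in het and 13740 to 38780 CPM in ko, against at most 1912 CPM for miR-451a. What part of their level came from red cells was not tested. miR-16-5p, one of the most abundant miRNAs of red cells, was at -0.09, miR-15a-5p at -0.42 and miR-22-3p, the lowest of the list, at -0.56, while the value was 0.31 for miR-92a-3p and also for miR-25-3p. Among leukocyte and platelet miRNAs 0 of 6 passed (median -0.02), with miR-142a-3p at -0.52 and miR-155-5p at 1.01. The lists of the vessel wall (4 tested, median -0.19), of muscle (3, -0.18), of neurons (5, 0.17) and of oligodendrocytes (2, -0.19) had no call either. Before adjustment the neuronal miR-138-5p alone passed among the listed miRNAs, at -0.61 (SE 0.24, limma adjusted p = 0.529).

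The miRNAs of brain cells were abundant, as the tissue label requires. The summed level of the 5 neuronal miRNAs ran from 178700 to 219700 CPM in het and from 182500 to 279800 CPM in ko, far above that of the 4 miRNAs described here, at 912 to 3392 CPM. The muscle miRNAs miR-1a-3p, miR-133a-3p and miR-206-3p summed to 197.9 to 309.4 CPM in het and 146 to 381.2 CPM in ko, which is of the size of the miR-486a/b-5p level. No read was annotated to a globin mRNA among 6692 distinct reads annotated to mRNAs, with 8 globin transcripts searched by the same IDs and with the same limit. Perfusion is described only for brains that were fixed for staining. How far blood left in the vessels set the levels of these miRNAs was not tested.

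**Figure D4:**
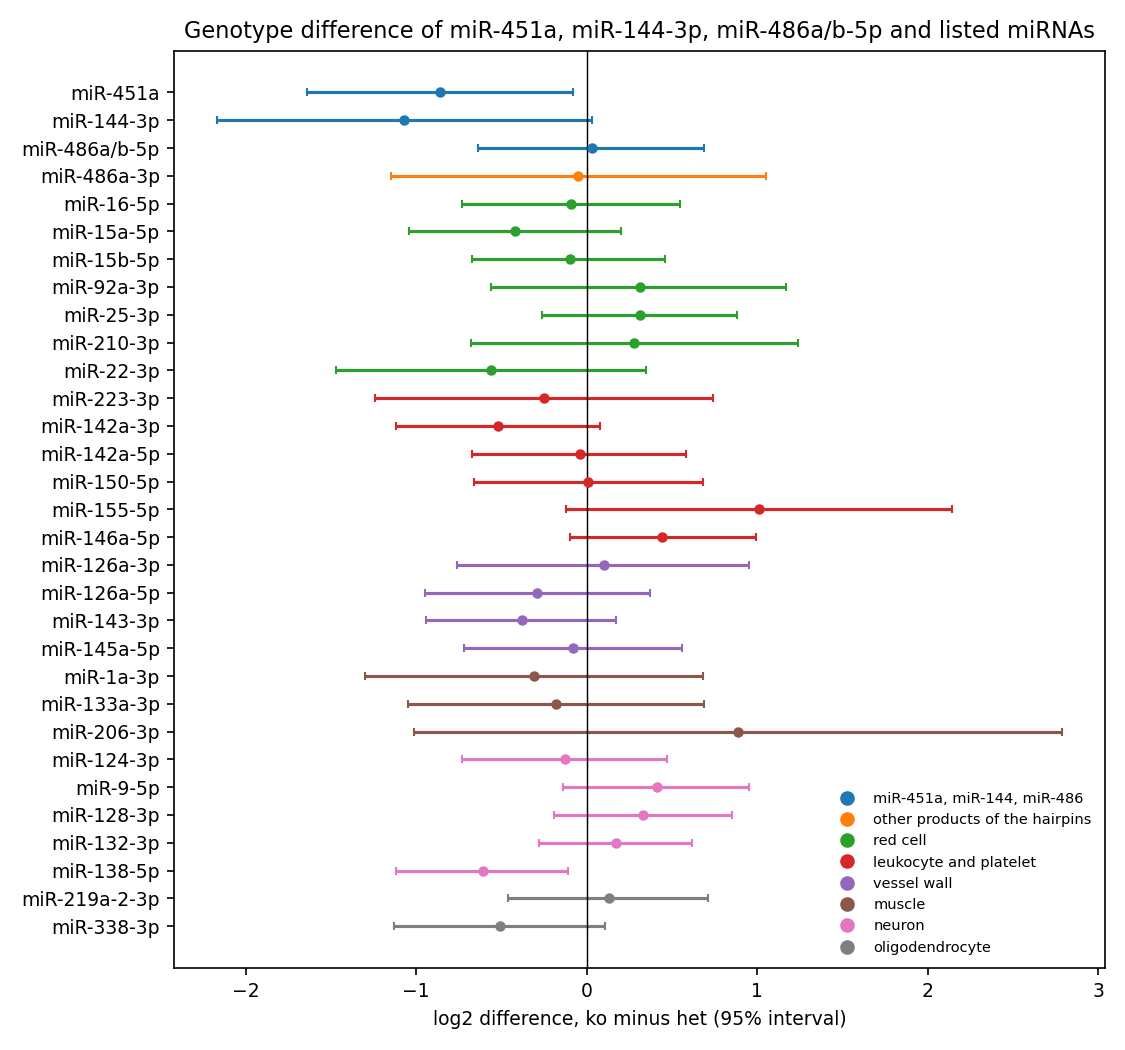
log2 difference in level (ko minus het, limma, point) with its 95% interval (bar) for miR-451a, miR-144-3p and miR-486a/b-5p (blue) and for the listed miRNAs of the hairpins and of other cells, coloured by list. None passed an adjusted p of 0.05, and the intervals of miR-451a and miR-138-5p alone lay wholly below 0.

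The shape of the reads was compared between genotypes in 12 measures of length, seed, 3′ end and ratio, by the exact two-sided permutation test of the difference of means (70 arrangements). None passed after adjustment. The reads of miR-144-3p averaged 19.5, 19.67, 19.64 and 19.65 nt over the het libraries and 19.2, 19.27, 19.45 and 19.46 nt over the ko libraries. All het libraries were above all ko libraries, by 0.27 nt on average (exact permutation p = 0.0286, the smallest possible, adjusted p = 0.343). How many of the other tested miRNAs also separate the genotypes by mean read length was not counted. Without ko replicates 1 and 2, the deepest libraries and the ones with the shortest reads, the difference was -0.161 nt and the groups still did not overlap. The exact permutation p was then 0.0667, the smallest that 4 against 2 libraries allow. The 20-nt share was picked after its values were seen and is given without a test. It was 45.4% ± 7.68 in het and 27.9% ± 3.32 in ko, with ranges of 35.99 to 54.84% and 24.84 to 31.59%. In the pooled reads of all other miRNA names the 20-nt share was 8.926% in het and 8.012% in ko, and single miRNAs were not compared. For miR-451a the het mean length was 22.95 ± 0.0846 nt and the ko mean length 22.91 ± 0.171 nt (exact permutation p = 0.743), and its share of exact prefixes was 95.41% ± 1.41 and 93.42% ± 2.11 (exact permutation p = 0.171). The length of miR-486a/b-5p was 21.99 nt in both groups.

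The ratio of miR-451a to miR-144-3p, which share a transcript, with 1 CPM added to each level, ran from 1.57-fold to 7.81-fold. Its mean on the log2 scale was 1.698 ± 0.954 in het and 1.907 ± 0.719 in ko (exact permutation p = 0.743, adjusted p = 0.891). The ratio of miR-451a to miR-486a/b-5p on the same scale was lowest in ko replicates 3 and 1, at 1.96-fold and 2.57-fold, and 6.8-fold to 12-fold in the other 6 libraries. This ratio had a log2 mean of 3.042 ± 0.371 in het and 2.153 ± 1.18 in ko (exact permutation p = 0.229, adjusted p = 0.549).

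Co-variation was measured as the correlation of log2(CPM + 1) over the 8 libraries for the 6 pairs, with exact permutation p over all pairings. No pair passed after adjustment. The cluster partners miR-451a and miR-144-3p had Pearson's r = 0.66 (exact permutation p = 0.078, adjusted p = 0.259) and Spearman's rho = 0.6 (exact permutation p = 0.132, adjusted p = 0.397). Without ko replicates 1 and 3, the libraries farthest from the median of miR-451a, r was 0.52, and after the genotype means were taken out it was 0.49. With each library's trend in GC content removed (tried after seeing the data), r was 0.48. The 2 arms of miR-144 had r = 0.65 (exact permutation p = 0.0862, adjusted p = 0.259) and rho = 0.69 (exact permutation p = 0.0694, adjusted p = 0.397). Their r was 0.59 without the 2 farthest libraries and 0.48 with the GC trend removed. miR-451a and miR-486a/b-5p had r = -0.41 (exact permutation p = 0.307, adjusted p = 0.495) and rho = -0.19 (adjusted exact permutation p = 0.935), and r = 0.35 without ko replicates 1 and 3, so the sign rested on those libraries. Their r was -0.77 with each library centred on its median (exact permutation p = 0.0246, adjusted p = 0.148), -0.69 without het replicate 2 and -0.07 without ko replicate 3. The other 3 pairs had r between -0.17 and 0.40 (adjusted exact permutation p from 0.495 to 0.867). Among them miR-451a and miR-144-5p had r = 0.40 and rho = 0.17, and leaving out 1 library gave r from 0.15 (without ko replicate 3) to 0.79 (without het replicate 3, adjusted exact permutation p = 0.113). With 4 libraries in each genotype, no correlation within a genotype was computed.

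**Figure D5:**
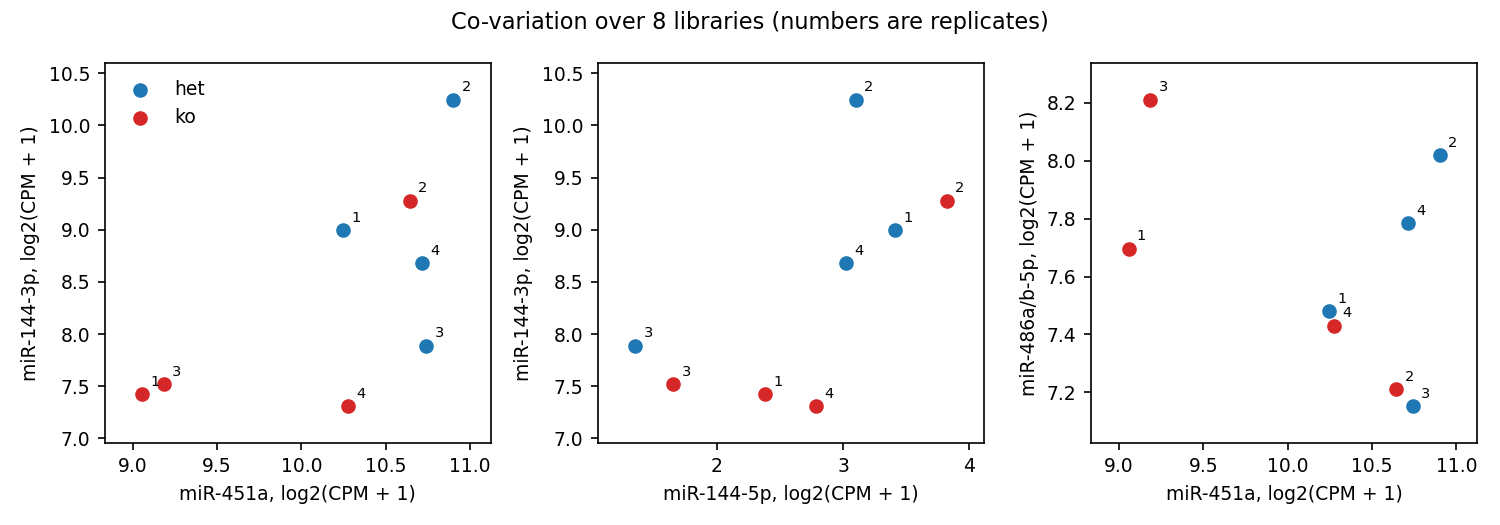
Levels as log2(CPM + 1) of miR-144-3p against miR-451a (left), miR-144-3p against miR-144-5p (middle) and miR-486a/b-5p against miR-451a (right) in the 4 het (blue) and 4 ko (red) libraries, numbered by replicate. In the left and right plots ko replicates 1 and 3 stand apart at low miR-451a, and r was 0.66, 0.65 and -0.41 from left to right.

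Other miRNAs followed miR-451a more closely than its cluster partner did. Of 462 other miRNAs, the 5 with the highest Pearson's r to miR-451a over the 8 libraries were miR-3106-5p (0.97), miR-33-5p (0.95), miR-101a-5p (0.94), miR-29b-3p (0.93) and miR-30e-5p (0.91). miR-144-3p stood at place 39 and miR-486a/b-5p at place 386, and the median r was 0.03. These values share the depth and scaling of 8 libraries and are a description.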

How the data were processed

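Argonaute-bound RNA was sequenced from 4 het and 4 ko brains after a gel cut that the labels give as 19 to 35 nt, and the table holds reads of 15 to 31 nt, with groups and replicate numbers taken from the sample titles. The submitters' processing notes name Trim Galore. Per the study's methods, the authors' SPOROS pipeline removed rare reads, matched the rest to small RNA lists by BLAST, removed artificial sequences and scaled each library to 1000000 reads, so the deposited values are CPM of each distinct read. The deposited viability score belongs to the seed, and the deposited score column of row totals was not used. Versions were not given in the sources used here. Dividing each value by that of 1 read gave whole reads for 100.0% of values (tolerance 0.0006 CPM) and with them the depth. Every read had at least 8 copies over the libraries, so scarce forms are missing, and more easily those of shallow libraries. Intervals and floors cover counting error only, as reads had no molecular identifiers.

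CPM were summed by name, and 28 reads with 2 miR-486 names were taken as 1 entry. Levels were tested with limma 3.58.1 (trend, robust) on log2(CPM + 1) over miRNAs that averaged 10 CPM or more, without covariate, with Benjamini-Hochberg adjustment. Such differences understate changes of low miRNAs. On the recovered reads edgeR 4.0.16 called 4 miRNAs and DESeq2 1.42.0 called 9. Per-library measures were compared by exact permutation. Hairpins came from RefSeq (GRCm38.p6), where 3 of the 5 names were found. Tests were tried on simulated data, and the outcome is not given here. The miRNAs and lists were chosen with earlier results of these data known. Named were the miRNAs themselves, the listed ones, the 5 nearest to miR-451a and the most abundant reads (5 of miR-451a, 2 of others), and exceptions are stated.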

Additional observations from a re-analysis of the deposited data

Results flagged for a closer look

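Level, length, seed and ratio values of 32 groups of 4 libraries were searched for a library far from the other 3, and 3 groups held one, where chance alone would give about 1.6. miR-144-3p was at 620.6 CPM in ko replicate 2, with the next ko library at 182.6 CPM. That is also the deepest library. In het replicate 1, the shallowest library, the main seed was carried by 93.48% of miR-451a reads, with the next het library at 97.19%, and exact prefixes of the hairpin made up 93.32%, with the next at 95.97%. Most of the same reads count in both shares, so these 2 are not separate events. The part of depth in these values was not tested.

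Outside the named miRNAs, 47 distinct reads were annotated to the mir-451 hairpin without a mature name. They had a mean of 45.6 CPM (35.7 to 55.5 CPM over the 8 libraries), above the limit of 3 reads in each. Adding them to miR-451a changed no call.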

How the results depend on the processing

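Depth limited miR-144-5p, which had 39 reads in the het libraries together, and for the others the spread between mice was wide. Of 330 recomputed values of 26 results, 294 kept their direction and side of the threshold. The count of called miRNAs, 6 as reported, was 10 with the replicate number as a block and 4 to 9 in 18 other alternatives. The block changed no call of a miRNA described here (adjusted p = 0.263 for miR-451a and 0.0852 for miR-144-3p by limma). Same-numbered libraries correlated at -0.18 to 0.29, and not every library was nearest to its own number, so the numbers were not taken as pairs. Whether libraries of the same number were handled together was not tested. Over 19 alternatives, some chosen after seeing the data, the difference ran from -1.15 to -0.55 for miR-451a (adjusted p 0.162 to 0.988), -1.54 to -0.64 for miR-144-3p (0.0852 to 0.988) and -0.16 to 0.25 for miR-486a/b-5p (0.821 to 0.999). The share of unadjusted calls higher in ko, 5.88% as deposited, was 36.7% with DESeq2, 41.2% with the trend in GC content removed (tried after seeing the data) and 6 of 25 with edgeR.

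None of the reversed values was called, and the cause was not tested. The miR-144-5p difference turned to 0.16 by centring, 0.28 with edgeR, 0.24 with DESeq2 and 0.18 with the GC trend removed. Without the 2 libraries of over 5000000 reads, the length difference (ko minus het) was 0.067 nt for miR-451a and 0.0266 nt for miR-486a/b-5p, the main-seed difference of miR-144-5p was -3.15 percentage points, and the correlation of miR-144-5p and miR-486a/b-5p was 0.10. The last was 0.02 with the GC trend removed. Without the 2 farthest libraries, r was -0.22 for miR-451a with miR-144-5p, 0.35 for miR-451a with miR-486a/b-5p and -0.13 for miR-144-3p with miR-486a/b-5p, and the last was -0.38 by centring.

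With each library left out in turn, the ranges that crossed 0 were -0.52 to 0.27 for the miR-144-5p difference and -0.16 to 0.17 for that of miR-486a/b-5p (log2), -4.53 to 14.7 percentage points for the miR-144-5p main seed, -0.143 to 0.594 for the log2 ratio of miR-451a to miR-144-3p, -0.12 to 0.0161 nt for the length of miR-451a and -0.0349 to 0.0216 nt for that of miR-486a/b-5p. The correlation ran from -0.36 to 0.40 for miR-144-3p with miR-486a/b-5p and from -0.74 to 0.22 for miR-144-5p with miR-486a/b-5p.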
